A study of Arabidopsis thaliana with 6 samples.

Results

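Genes that make and decorate flavonols were examined in developing Arabidopsis thaliana seeds taken 8 days after pollination. The genes were chosen by name, as FLS1, UGT78D1, UGT78D2, UGT89C1, OMT1, RHM1 and the regulators MYB11 and MYB12. Of these 8 genes, 7 were found among the 16967 genes of the deposited table, and UGT89C1 (AT1G06000) was not analysed here. RNA sequencing compared 3 samples of wild-type Col-0, the reference accession, with 3 samples of tt7-7, a mutant allele of TT7, which encodes flavonoid 3'-hydroxylase. Both genotypes carry Col-0 in their accession label, no treatment is named, and tt7-7 is a single allele whose lesion the labels do not describe. The labels do not say whether samples came from separate plants, so p-values measure only the spread between these samples, which may be technical.

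Flavonols are flavonoids that plants store as sugar conjugates. Flavonol synthase turns dihydroflavonols into flavonols, while dihydroflavonol reductase draws on the same substrates for anthocyanidins and for the tannins that brown the seed coat. TT7 adds a hydroxyl group to the B ring, so that plants lacking its activity make kaempferol but no quercetin. Arabidopsis seeds are known to hold quercetin 3-O-rhamnoside as their main flavonol.

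Values are RPKM, reads scaled by gene length and library size, and compare genes per length. The libraries held 13677094 to 20547689 reads, as recovered from the steps of the RPKM values. TT7 itself (AT5G07990) had RPKM values of 499, 272 and 239.9 in Col-0 against 86.0, 97.4 and 103 in tt7-7, so the libraries labelled tt7-7 held less TT7 transcript. The median log2 fold change of the 16663 tested genes was 0.44, tt7-7 minus Col-0, on the log2(RPKM + 1) scale, and it was -0.016 under median-ratio scaling. Calls split into 8517 higher and 1412 lower on the deposited scale, 4476 and 4469 after median-ratio scaling, 4468 and 3576 after quantile normalization, 3760 and 3773 with the length trend removed, and 6621 and 2567 with libraries scaled outside the 100 highest genes. Embryo storage genes, with 6 of 6 markers in the table and none at 0, summed to 7579.9 to 51299 RPKM in Col-0 and 456 to 2545 in tt7-7. Seed coat endothelium genes, 6 of 6 with none at 0, summed to 438 to 649 RPKM in Col-0 and 918 to 1165 in tt7-7. TT10 gave 392 to 572 RPKM of the Col-0 sum, and its groups overlapped. By ratio of means, BAN, TT12, AHA10, TT16 and TT1 were 4.73-fold to 6.86-fold higher in tt7-7. The deposited table keeps genes above 2 RPKM in all 3 samples of a genotype. AHA10, TT16 and TT1 fell to 1.42, 1.26 and 0.892 RPKM in Col-0, so they entered only through tt7-7. Their direction was therefore largely set by that rule, while BAN and TT12 were above 2 RPKM in every sample. The part of the embryo storage and endothelium differences in the results below was not tested. The summed endosperm list, with 4 of 5 markers in the table, overlapped between genotypes at 538 to 908 against 453 to 1180.4 RPKM. Most of that sum was EPR1, at 492 to 887 RPKM in Col-0, while FIS2, FWA and ZOU were higher in tt7-7 without overlap. FIS2 and FWA fell to 0.770 and 1.60 RPKM in Col-0, so they too entered only through tt7-7, which favoured their direction. The summed seed coat epidermis list, with 5 of 5, overlapped at 347 to 563 against 473 to 610.0 RPKM. There TTG2 and GL2 were higher in tt7-7 without overlap, and MUM2, PER36 and MUM4 overlapped, MUM4 being the older name of RHM2. Of all tested genes 56.2% were higher without overlap. Green tissue genes summed to 19838 to 22593 RPKM in Col-0 and 7828 to 10074 in tt7-7. Pollen genes, 4 of 4 in the table, summed to 34.3 to 38.5 RPKM in Col-0 and 54.7 to 89.2 in tt7-7, and fruit wall genes, 3 of 4, to 31.7 to 34.5 and 39.3 to 50.6. AGP11, with means of 8.67 and 28.0 RPKM, and VGD1 were higher in tt7-7 without overlap. AGP6 and PPME1 overlapped, and the mean of PPME1 was lower in tt7-7 (5.65 and 4.27 RPKM). Of the fruit wall genes, IND and RPL were higher without overlap and FUL overlapped. In bulk seeds, fewer cells of a type and less RNA per cell cannot be told apart.

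Of the 7 flavonol genes, 1 was higher and 2 were lower in tt7-7 at a limma adjusted p of 0.05, and 4 were not called. MYB11 rose, OMT1 and UGT78D2 fell, and FLS1, UGT78D1, RHM1 and MYB12 did not pass. Over all tested genes 59.6% were called, 51.1% higher and 8.47% lower. The members' median log2 fold change was 0.15, and 5 of the 7 lay below the median of all tested genes. Groups did not overlap for 1 gene that was higher and 2 that were lower, against 56.2% and 9.97% of all tested genes, 66.2% in all.

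In Col-0 the levels ran in the order OMT1, RHM1, UGT78D1, FLS1, UGT78D2, MYB11 and MYB12. The RPKM ranges over the Col-0 samples did not overlap for OMT1 and RHM1, UGT78D1 and FLS1, or FLS1 and UGT78D2. Those of the other neighbours overlapped. Within each Col-0 sample, RHM1 still lay above UGT78D1 and MYB11 above MYB12. In tt7-7 the order was RHM1, OMT1, UGT78D1, MYB11, FLS1, UGT78D2 and MYB12. There OMT1 lay above UGT78D1, UGT78D1 above MYB11 and FLS1 above UGT78D2 in every sample. MYB11 thus stood beside FLS1 in tt7-7, where the RPKM ranges of these genes overlapped, and below FLS1 in all Col-0 samples.

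**Figure D1:**
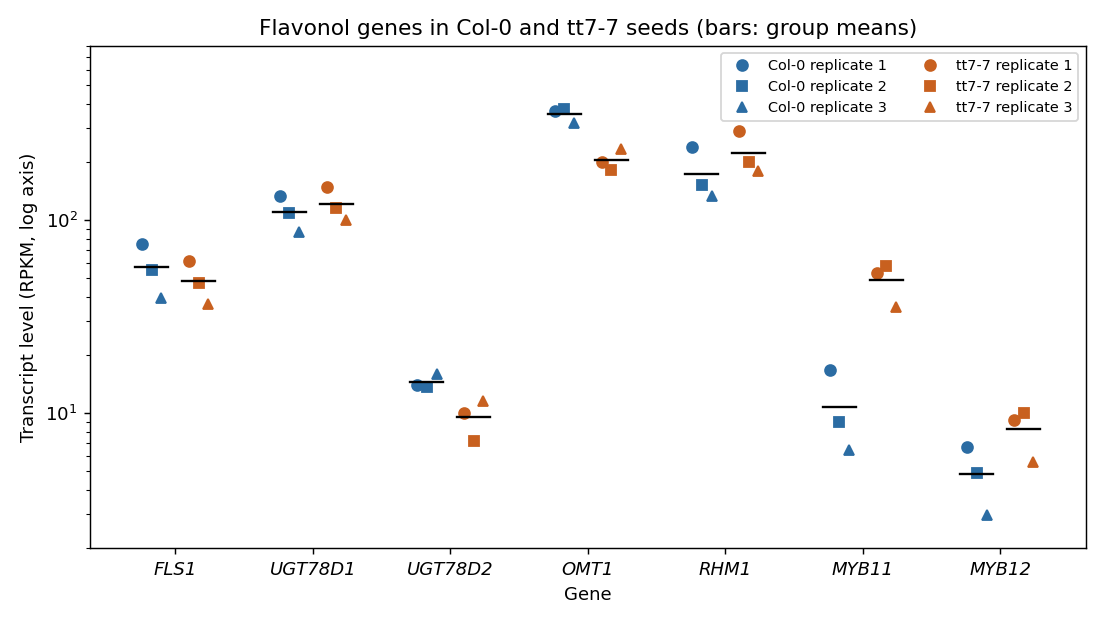
Transcript level in RPKM on a log axis for 7 flavonol genes, with 1 point per sample (Col-0 blue, tt7-7 orange, shapes give the replicate) and bars at the group means. MYB11 separates upward in tt7-7, OMT1 and UGT78D2 separate downward, and the groups of the other 4 genes overlap.

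MYB11 (AT3G62610) encodes an R2R3-MYB factor that, with MYB12 and MYB111, activates the early flavonoid genes and FLS1. MYB11 had RPKM values of 16.9, 9.05 and 6.44 in replicates 1 to 3 of Col-0 and of 53.2, 58.0 and 35.4 in those of tt7-7. All 3 tt7-7 samples lay above all 3 Col-0 samples, and the lowest sample of each genotype was replicate 3. The means were 10.8 ± 5.42 and 48.9 ± 11.9 RPKM (SD, n = 3 each), a 4.53-fold ratio, from 170 to 476 reads in Col-0 libraries and 988 to 1606 in tt7-7 libraries. Its log2 fold change, 2.15 (standard error 0.31), had a limma adjusted p of 0.000452. It exceeded that of 99.2% of tested genes, and MYB11 was called higher under all 18 alternative settings, at 1.67 to 2.50. MYB11 lies on chromosome 3 at 23154630 to 23156585 of RefSeq TAIR10.1, plus strand, with 3 exons. A minus-strand gene overlaps 110 of its 1374 transcript bases, and without a stated strand their reads cannot be told apart there.

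MYB12 (AT2G47460) encodes the relative of MYB11 best known as a flavonol regulator of roots. It had the lowest mean level of the 7 genes in both genotypes, at 6.67, 4.90 and 2.97 RPKM in Col-0 and 9.21, 10.1 and 5.57 RPKM in tt7-7. The groups overlapped, since tt7-7 replicate 3 lay below Col-0 replicate 1. The means were 4.85 ± 1.85 and 8.29 ± 2.39 RPKM (SD, n = 3 each), on 91 to 322 reads per library. The log2 fold change of 0.68 (95% interval 0.07 to 1.29) had a limma adjusted p of 0.0529 and did not pass. It passed without Col-0 replicate 1 (0.90, limma adjusted p 0.0182) and without tt7-7 replicate 3 (0.91, limma adjusted p 0.0196), and the adjusted p ranged from 0.00682 to 0.730 over its 17 alternatives. MYB12 lies on chromosome 2 at 19476326 to 19479597 on the plus strand, also with 3 exons.

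The balance between these regulators was compared within each library, where a ratio does not depend on the scaling between libraries. The MYB12 to MYB11 ratio of RPKM was 0.396, 0.541 and 0.462 in the 3 Col-0 libraries against 0.173, 0.174 and 0.157 in those of tt7-7. Every tt7-7 ratio lay below every Col-0 ratio. The mean log2 ratio differed by -1.46 with a standard error of 0.14, which is 2.75-fold, with an exact two-sided permutation p of 0.1 and an adjusted p of 0.167 over the 5 ratios tested. With 3 samples against 3 a p of 0.1 is the smallest possible, so no ratio could pass 0.05. MYB11 made up 68.3 ± 3.38% of the summed RPKM of the pair in Col-0 and 85.6 ± 0.695% in tt7-7 (SD, n = 3 each).

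Around these factors, a list of 11 other regulators linked to flavonols was examined. Of the 6 in the table, 5 rose, where 51.1% of all tested genes did, and HYH (AT3G17609) did not pass at 0.01. The list's median log2 fold change was 0.77, against 0.44 over all tested genes. MYB4 (AT4G38620), a repressor of phenylpropanoid genes, was at 36.7, 35.96 and 28.4 RPKM in Col-0 and 69.0, 82.0 and 92.0 RPKM in tt7-7, so the genotypes did not overlap. MYB4 changed by 1.24, COP1 (AT2G32950), a ubiquitin ligase of light signalling, by 1.01, and MYB7 (AT2G16720), a relative of MYB4, by 0.92. COP1 was at 0.37 with the length trend removed. UVR8 (AT5G63860), the UV-B receptor, changed by 0.61. Of the 6, 3 were called higher after median-ratio scaling (26.9% of all tested genes) and 3 after quantile normalization (26.8%), and UVR8 and HY5 were not among them, with UVR8 at 0.12 and 0.26 (limma adjusted p 0.389 and 0.101, and 0.00283 to 0.718 over its alternatives). With the length trend removed UVR8 was at 0.053 and also not called. MYB111 was not analysed here.

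FLS1 (AT5G08640), the main flavonol synthase, lies on chromosome 5 at 2803833 to 2805606 on the plus strand, with 3 exons. FLS1 had RPKM values of 75.7, 55.5 and 39.6 in replicates 1 to 3 of Col-0 and of 61.7, 47.2 and 37.0 in those of tt7-7. The groups overlapped, and the highest and lowest samples were replicates 1 and 3 in both. The means were 56.9 ± 18.1 and 48.6 ± 12.4 RPKM (SD, n = 3 each), on 1137 to 2354 reads per library. The log2 fold change of -0.21 (95% interval -0.77 to 0.36, limma adjusted p 0.503) did not pass. A lower value was found for 15.5% of tested genes. Under median-ratio scaling FLS1 was called lower, at -0.70 with a limma adjusted p of 0.0326, and over its 18 alternatives the adjusted p ranged from 0.00276 to 0.946. Its sign turned to 0.02 without Col-0 replicate 1.

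Promoter sequences are shown for FLS1, the gene the MYB factors are known to activate, and for the 2 measured genes whose window held a searched motif. Each is the 300 bases before the gene's 5' end in RefSeq TAIR10.1, read 5' to 3' on the gene's plus strand, with motifs in capitals. They are FLS1 at chr5:2803533-2803832, RHM1 at chr1:29549240-29549539 and MYB12 at chr2:19476026-19476325.
FLS1: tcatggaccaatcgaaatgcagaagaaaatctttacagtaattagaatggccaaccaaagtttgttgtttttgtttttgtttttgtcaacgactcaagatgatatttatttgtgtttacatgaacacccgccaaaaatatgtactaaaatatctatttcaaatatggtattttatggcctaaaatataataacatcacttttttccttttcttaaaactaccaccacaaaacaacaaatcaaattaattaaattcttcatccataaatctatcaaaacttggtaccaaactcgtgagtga
RHM1: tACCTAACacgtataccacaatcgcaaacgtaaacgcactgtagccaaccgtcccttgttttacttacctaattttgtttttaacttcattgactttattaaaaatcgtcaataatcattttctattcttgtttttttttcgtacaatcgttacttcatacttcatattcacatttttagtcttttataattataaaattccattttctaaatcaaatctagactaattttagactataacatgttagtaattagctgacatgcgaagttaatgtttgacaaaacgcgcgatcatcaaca
MYB12: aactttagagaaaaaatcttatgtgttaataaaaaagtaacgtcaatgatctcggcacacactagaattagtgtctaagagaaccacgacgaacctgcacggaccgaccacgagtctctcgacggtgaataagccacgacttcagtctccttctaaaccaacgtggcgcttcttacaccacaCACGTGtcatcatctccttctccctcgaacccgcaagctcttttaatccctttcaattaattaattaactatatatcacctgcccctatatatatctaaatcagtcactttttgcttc
Both strands were searched for the MYB recognition element in the form ACCTACC, in its variant form ACCAACC and in the further variant ACCTAAC. The G-box, which bZIP and bHLH factors bind, was searched as CACGTG, and no flavonol gene held more than 1 match. RHM1 held ACCTAAC starting 299 bases before the gene, and MYB12 held CACGTG starting 118 bases before it. UGT89C1 held ACCTACC starting 193 bases before the gene, and the windows of FLS1, UGT78D1, UGT78D2, OMT1 and MYB11 held none of these letters. Over 16856 promoters of genes in the table, 7.15% held any of the 3 MYB elements and 8.20% the G-box, against 2 and 1 of the 8 flavonol genes.

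The branch at which FLS1 acts was compared with its competitor. TT3 (AT5G42800) encodes dihydroflavonol reductase, and it rose from 193, 71.3 and 45.9 RPKM in Col-0 to 583, 483 and 380.3 RPKM in tt7-7. Its log2 fold change was 2.45 with a limma adjusted p of 0.00135. The ratio of FLS1 to TT3 was 0.392, 0.778 and 0.863 in the 3 Col-0 libraries against 0.106, 0.0976 and 0.0973 in those of tt7-7. Col-0 replicate 1 had the lowest Col-0 ratio, the tt7-7 ratios lay close together, and the genotypes did not overlap. The mean log2 ratio differed by -2.68 with a standard error of 0.36, which is 6.40-fold (exact two-sided permutation p 0.1, adjusted p 0.167 over 5 ratios).

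The first enzyme of the pathway gave a second comparison. TT4 (AT5G13930), chalcone synthase, was at 819, 549 and 448 RPKM in Col-0 and 1564, 1300.0 and 834 RPKM in tt7-7. The ratio of FLS1 to TT4 was 0.0924, 0.101 and 0.0886 in Col-0 and 0.0395, 0.0363 and 0.0444 in tt7-7. The ratios were tight within each genotype and did not overlap, with a difference of -1.23 (log2, standard error 0.10), which is 2.35-fold, an exact two-sided permutation p of 0.1 and an adjusted p of 0.167. Relative to both enzymes, FLS1 transcript was therefore lower in every tt7-7 library than in every Col-0 library. On the deposited scale TT3 changed by 2.45 and TT4 by 1.02 (log2), while FLS1 changed by -0.21 and did not pass. On that scale the lower ratios thus came mostly from the rise of TT3 and TT4. How many other genes would shift likewise against TT3 or TT4 was not tested.

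Among 5 precursor enzymes, 4 were in the table. TT4, TT5 (AT3G55120) and CHIL (AT5G05270) rose by 1.02, 0.81 and 1.27 on the log2 scale, and TT7 fell by 1.74, where 51.1% of all tested genes rose and 8.47% fell. TT4 was at 1.61 after quantile normalization. TT5 encodes chalcone isomerase and CHIL an isomerase-like protein that aids chalcone synthase. None of these 3 was called under median-ratio scaling, at 0.52, 0.31 and 0.77 in the same order, with limma adjusted p of 0.153, 0.402 and 0.0543. TT5, whose groups overlapped, was called under 8 of its 18 alternatives (limma adjusted p 0.0484, and 0.00203 to 0.402 over them). With the length trend removed, where 3760 of all tested genes were called higher, CHIL alone of the 4 was called higher. The same held without Col-0 replicate 3 or without tt7-7 replicate 1. Of 6 genes of the competing branch, 5 rose, against 51.1% of all tested genes, and TT10 (AT5G48100), a laccase of the seed coat, did not pass at 0.26 but was called under quantile normalization. AHA10 (AT1G17260), a proton pump of the tannin-storing cells, changed by 2.58 (1.81 with the length trend removed), BAN (AT1G61720), anthocyanidin reductase, by 2.36, and TT12 (AT3G59030), a vacuolar transporter, by 2.29. The branch's median was 2.33, and 4 of its 6 genes are also in the endothelium marker list. The 5 genes other than TT10 were called higher under all 18 alternatives. AHA10 was at 1.42 RPKM in Col-0 replicate 3, so it entered the deposited table only through tt7-7, which favoured its direction. Of all tested genes 26.9% were called higher under median-ratio scaling and 26.8% after quantile normalization.

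**Figure D2:**
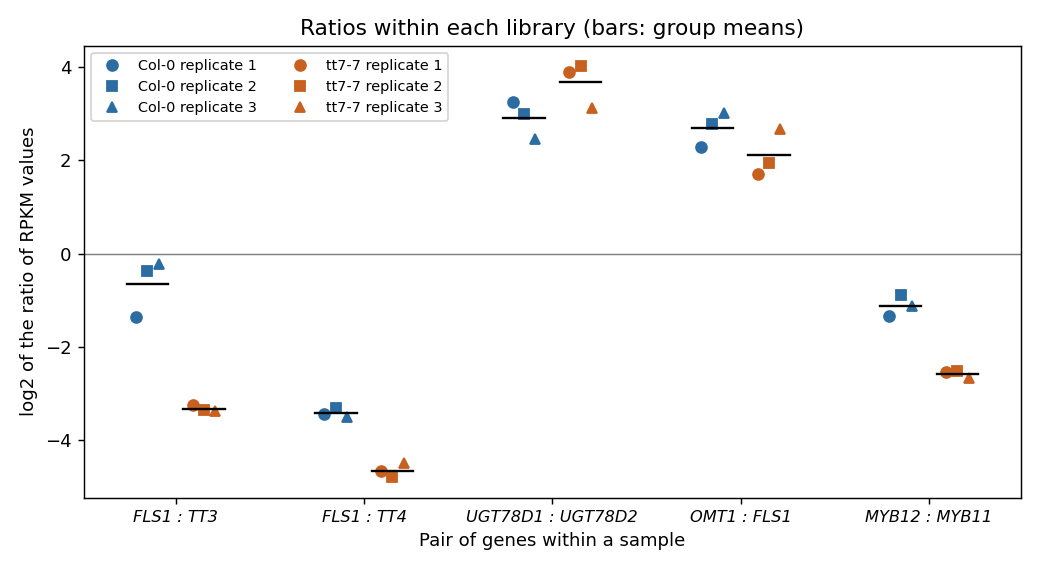
log2 of the ratio of RPKM values of gene pairs within each library (Col-0 blue, tt7-7 orange, shapes give the replicate, bars at group means). The ratios of FLS1 to TT3, FLS1 to TT4 and MYB12 to MYB11 separate downward in tt7-7, and the other 2 pairs overlap.

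FLS1 belongs to a family of similar sequences. Of 5 paralogs FLS2 (AT5G63580) was in the table, and reported assays found no flavonol synthase activity for its product. FLS2 was at 17.8, 15.6 and 17.1 RPKM in Col-0 and 19.9, 22.4 and 27.3 RPKM in tt7-7, below FLS1 in every sample. FLS2 rose by 0.43 (limma adjusted p 0.0316), but the call was lost with median-ratio scaling (-0.053), quantile normalization (0.0059), removal of the length trend (0.13) or scaling outside the 100 highest genes (0.20), and when Col-0 replicate 2, Col-0 replicate 3, tt7-7 replicate 2 or tt7-7 replicate 3 was left out (0.31 to 0.45). Its adjusted p over the alternatives ranged from 0.0251 to 0.974. Coding sequences of FLS1 and FLS2 were 77.0% identical over 731 aligned bases, with a longest shared run of 14 bases.

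The genes whose profile over the 6 samples came closest to that of FLS1 were CER2 (AT4G24510), HCD1 (AT4G14440) and MUR1 (AT3G51160). Likeness was the root mean square difference of centred log2(RPKM + 1) values, which was 0.0684, 0.0748 and 0.0934, out of 16662 genes compared. CER2 was at 122, 85.7 and 65.3 RPKM in Col-0 and 107, 76.7 and 66.0 RPKM in tt7-7. Among the flavonol genes UGT78D1 came nearest, at rank 145 with 0.204, then RHM1 at rank 1386, and MYB11 stood farthest, at rank 16348 with 1.19.

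The glycosyltransferases that act on the 3 position of flavonols are UGT78D1, which attaches rhamnose, and UGT78D2, which attaches glucose and also acts on anthocyanidins. UGT78D1 (AT1G30530) was at 134, 109 and 87.4 RPKM in Col-0 and 149, 116 and 101 RPKM in tt7-7. The groups overlapped, and replicate 1 was the highest and replicate 3 the lowest in both. The means were 110.0 ± 23.1 and 122 ± 24.6 RPKM (SD, n = 3 each), on 2845 to 5239 reads per library. The log2 fold change of 0.15 (95% interval -0.31 to 0.60, limma adjusted p 0.549) did not pass, and its sign varied over the 18 alternatives (-0.36 to 0.30). It was called lower under 1 of them, the replicate block joined to median-ratio scaling, at -0.36 with a limma adjusted p of 0.0370. UGT78D1 lies on chromosome 1 at 10814612 to 10816615, plus strand, with 2 exons.

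UGT78D2 (AT5G17050) was at 14.1, 13.6 and 15.9 RPKM in Col-0 and 10.03, 7.19 and 11.6 RPKM in tt7-7. The tt7-7 samples all lay below the Col-0 samples. In both genotypes replicate 3 was the highest and replicate 2 the lowest, whereas UGT78D1 was lowest in replicate 3. The means were 14.5 ± 1.23 and 9.60 ± 2.23 RPKM (SD, n = 3 each), on 235 to 499 reads per library. UGT78D2 fell by 0.57 on the log2 scale (standard error 0.17, limma adjusted p 0.0192). It was not called without Col-0 replicate 3 (-0.51, limma adjusted p 0.0637) or without tt7-7 replicate 2 (-0.40, limma adjusted p 0.0806), and the adjusted p ranged from 0.00246 to 0.0806 over its 18 alternatives. Under median-ratio scaling its log2 fold change was -1.04, and after quantile normalization -1.07. UGT78D2 lies on chromosome 5 at 5607788 to 5609589, minus strand, with 2 exons.

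UGT78D1 was the more abundant of the pair in every library. The ratio of UGT78D1 to UGT78D2 was 9.50, 8.00 and 5.48 in the 3 Col-0 libraries against 14.8, 16.1 and 8.69 in those of tt7-7. The groups overlapped, because tt7-7 replicate 3 lay below Col-0 replicate 1. The log2 difference of 0.77 (standard error 0.36) had an exact two-sided permutation p of 0.2 and an adjusted p of 0.2. Their coding sequences were 82.8% identical over 1350 aligned bases with a longest shared run of 28 bases. UGT78D2 shared a run of 50 bases with UGT78D4 and 44 with UGT78D3, which were not analysed here. The read length is not given in the sources used here, and how reads from such shared runs were counted is not known. UGT89C1, the 7-O-rhamnosyltransferase, lies on chromosome 1 at 1820308 to 1821894 on the minus strand, and a plus-strand gene overlaps 1580 of its 1587 transcript bases. BGLU15 (AT2G44450), a glucosidase of flavonol glycosides and the 1 of 4 other glycosylation and turnover genes in the table, did not pass at 0.11, but was called lower under median-ratio scaling (-0.39) and with the length trend removed (-0.40).

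RHM1 (AT1G78570) makes UDP-rhamnose, the sugar donor of the rhamnosyltransferases and also of cell wall pectin. RHM1 was at 238, 152 and 133 RPKM in Col-0 and 288, 199 and 179.7 RPKM in tt7-7. The groups overlapped, since Col-0 replicate 1 lay above tt7-7 replicates 2 and 3. The means were 175 ± 56.1 and 222 ± 58.0 RPKM (SD, n = 3 each), on 5349 to 12597 reads per library. The log2 fold change of 0.36 (95% interval -0.21 to 0.93, limma adjusted p 0.237) did not pass. RHM1 passed without Col-0 replicate 1 (0.61, limma adjusted p 0.0453), while its sign turned under median-ratio scaling (-0.14) and with the length trend removed (-0.31). The adjusted p ranged from 0.0412 to 0.679 over its 18 alternatives. RHM1 lies on chromosome 1 at 29549540 to 29552438, plus strand, with 3 exons, and minus-strand genes overlap 208 of its 2572 transcript bases.

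The other genes of UDP-rhamnose synthesis were RHM2 (AT1G53500), needed for seed coat mucilage, RHM3 (AT3G14790) and UER1 (AT1G63000), a reductase. None of the 3 was called by limma, at an adjusted or an unadjusted p of 0.05, with log2 fold changes of -0.07 to -0.01. Under median-ratio scaling all 3 were called lower, with a median of -0.52, 1 under quantile normalization and 2 with the length trend removed, where 26.8%, 21.5% and 22.8% of all tested genes were called lower. RHM1 held 75.3%, 60.1% and 64.6% of the summed RPKM of RHM1, RHM2 and RHM3 in Col-0 and 76.9%, 72.9% and 67.8% in tt7-7. It was the most abundant of the 3 in every library, and its share overlapped between genotypes (exact two-sided permutation p 0.3).

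OMT1 (AT5G54160) methylates quercetin to isorhamnetin and also acts on precursors of lignin and sinapate. OMT1 was at 369, 378 and 319.6 RPKM in Col-0 and 200.1, 182 and 235 RPKM in tt7-7. Every tt7-7 sample lay below every Col-0 sample. The means were 355 ± 31.4 and 206 ± 26.98 RPKM (SD, n = 3 each), a ratio of 0.579, from 7730 to 11357 reads in Col-0 libraries and 4667 to 7152 in tt7-7 libraries. OMT1 fell by 0.79 on the log2 scale (standard error 0.16, limma adjusted p 0.00267). A lower log2 fold change was found for 3.95% of tested genes, and OMT1 was called lower under all 18 alternatives, at -1.29 to -0.53. OMT1 lies on chromosome 5 at 21981902 to 21984399, plus strand, with 4 exons and no overlapping gene in the annotation.

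OMT1 and FLS1 differed less clearly when set against each other. The ratio of OMT1 to FLS1 was 4.88, 6.80 and 8.06 in the 3 Col-0 libraries against 3.24, 3.86 and 6.36 in those of tt7-7. The groups overlapped, with a log2 difference of -0.58 (standard error 0.36, exact two-sided permutation p 0.2, adjusted p 0.2).

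The methyl donor of OMT1 is S-adenosylmethionine, and 6 genes of its supply were examined. Of these 3 fell, against 8.47% of all tested genes, 3 did not pass, and the median log2 fold change was -0.53. SAM2 (AT4G01850) fell by 0.64, SAM1 (AT1G02500) by 0.60 and MAT3 (AT2G36880) by 0.58, each encoding an S-adenosylmethionine synthetase. SAM1 was at 730.1, 727 and 583 RPKM in Col-0 and 440.0, 454 and 442 RPKM in tt7-7, with no overlap. All 6 were called lower under median-ratio scaling and with the length trend removed, 5 with scaling outside the 100 highest genes and 0 under quantile normalization, where the median was -0.15. In that order of scalings, 26.8%, 22.8%, 15.4% and 21.5% of all tested genes were called lower. After quantile normalization SAM1 was at -0.15, SAM2 at -0.35 and MAT3 at -0.17, with limma adjusted p of 0.412, 0.0516 and 0.547, the highest over their alternatives. With single samples left out, 1 to 4 were called lower, the fewest without Col-0 replicate 2. It was 4 without Col-0 replicate 3, where 7.63% of all tested genes were called lower. Leaving out Col-0 replicate 1, tt7-7 replicate 2 or tt7-7 replicate 3 gave 2, against 6.03% of all tested genes without tt7-7 replicate 2.

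**Figure D3:**
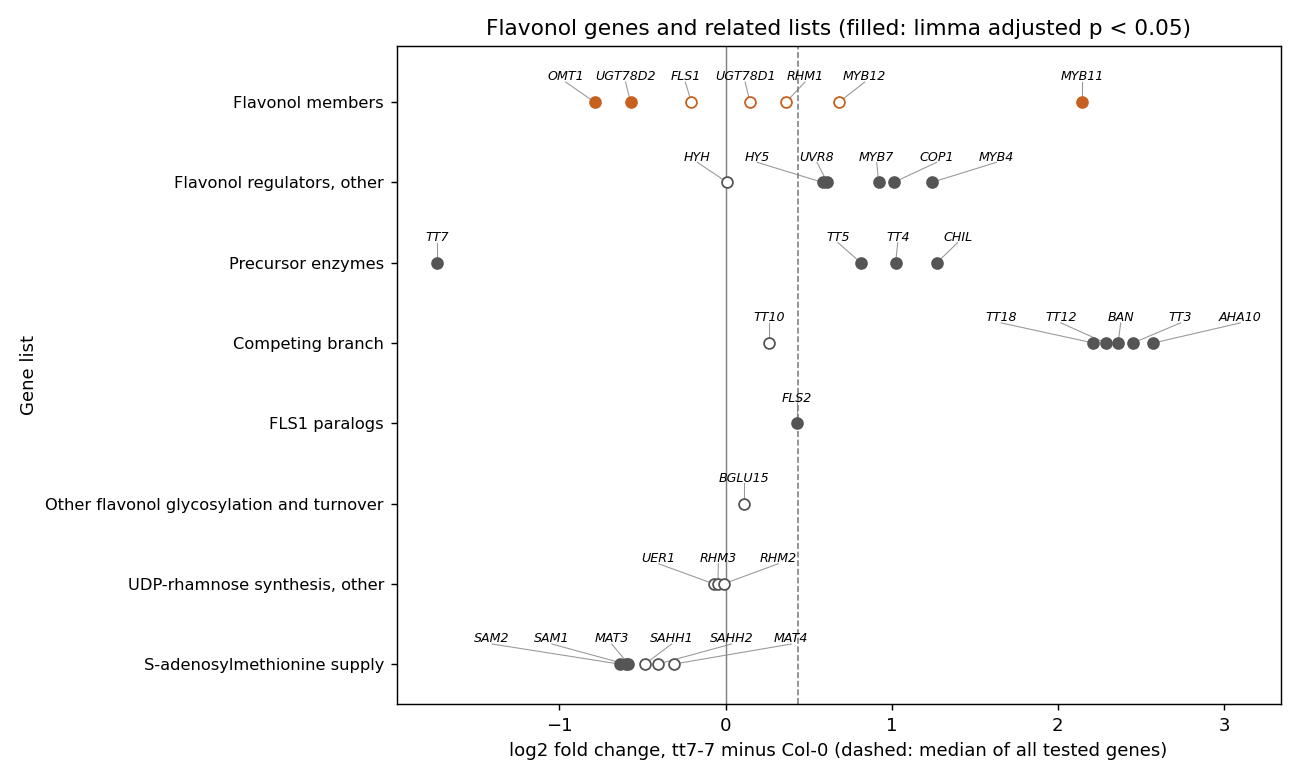
log2 fold change, tt7-7 minus Col-0, on the log2(RPKM + 1) scale for the 7 flavonol genes (orange) and the genes of 7 related lists (grey), with filled points for a limma adjusted p under 0.05 and a dashed line at the median of all tested genes, 0.44. OMT1 and UGT78D2 lie left of 0 and MYB11 lies right of all other flavonol genes.

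The scaling between libraries moved the values of members that passed and of members that did not. OMT1 was at -0.79 as deposited, -1.29 after median-ratio scaling and -0.53 after quantile normalization. OMT1 and UGT78D2 stayed lower and MYB11 higher under each of the 4 scalings other than the deposited one. The log2 fold change of UGT78D1 was 0.15 as deposited, -0.36 after median-ratio scaling, 0.19 after quantile normalization and -0.095 with scaling outside the 100 highest genes. FLS1 stayed below 0 and MYB12 above 0 under all of them. MYB12 went from 0.68 as deposited to 0.26 after median-ratio scaling and 0.11 after quantile normalization. It was at 0.48 with scaling outside the 100 highest genes and at 0.31 with the length trend removed. The limma adjusted p of MYB12 was 0.416, 0.730, 0.150 and 0.342 in that order.

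**Figure D4:**
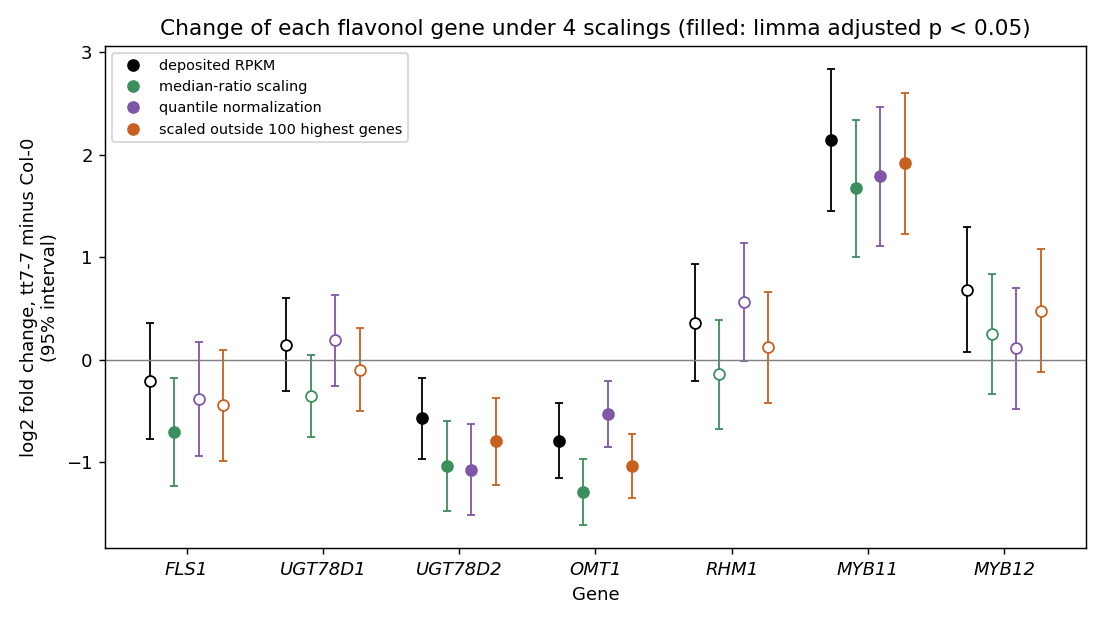
log2 fold change with its 95% interval for each flavonol gene as deposited and under 3 other scalings, with filled points for a limma adjusted p under 0.05. MYB11, OMT1 and UGT78D2 are filled under all 4, and FLS1 under median-ratio scaling.

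In Col-0, 5 of the 7 flavonol genes were highest in replicate 1 and 6 were lowest in replicate 3, where 62.2% and 63.7% of all tested genes had the same extremes. In tt7-7, 5 of the 7 were lowest in replicate 3, against 34.6% of all tested genes, so that the tested genes as a whole showed no such order there. Embryo storage genes took 1.04%, 2.25% and 7.77% of reads in the 3 Col-0 libraries against 0.224%, 0.0538% and 0.336% in those of tt7-7, and their part in the order of the Col-0 samples was not tested.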

How the data were processed

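Total RNA of the seeds was DNase-treated and sequenced from Illumina libraries, per the labels' protocols. The submitters' processing notes name cutadapt, FastQC, HISAT2, HTSeq and DESeq2 and the build TAIR10, with no role or order. Neither strandedness nor read length is known from the sources used. RPKM values were deposited by the authors for 16967 genes, each above 2 RPKM in all 3 samples of a genotype.

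Groups came from the sample titles. Reads were recovered from the RPKM steps with RefSeq transcript lengths. They were whole within 0.02 in all 6 samples for 16855 genes (99.3%), which served the voom fit and the read numbers. The main test was limma 3.58.1 (R 4.3.3) on log2(RPKM + 1) with a mean-variance trend and no covariate. It covered the 16663 genes with a mean of at least 2 RPKM, with Benjamini-Hochberg adjustment over them and a threshold of 0.05. Fold changes on that scale understate changes of low genes. Ratios of RPKM within a library were compared by exact permutation. Sequences and coordinates came from RefSeq TAIR10.1 by locus tag. Coding sequences were aligned with Biopython 1.88. Other steps ran in Python 3.11.15 (scipy 1.17.1, numpy 2.4.6). The fit and the read recovery were tested on simulated data.

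The members, gene lists and tests were chosen with earlier results of these data known. Named genes were all members, up to 4 called genes per list in order of p, genes used in a ratio, and the 3 profiles nearest to FLS1. Genes that did not pass were also named where a count was small, after their values were seen. The planned ratio of UGT89C1 to RHM1 was not analysed here. The alternatives were 4 scalings, voom, no trend, the replicate block, each sample left out, the filter dropped or raised to a mean of 10 RPKM, and a pseudocount of 0.5 or 0.1 RPKM. The replicate block joined to median-ratio scaling was added after the data were seen.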

Additional observations from a re-analysis of the deposited data

How the results depend on the processing

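MYB11 and OMT1 kept their direction and call under all 18 alternatives, and UGT78D2 under 16. The members called higher numbered 3 with the replicate number as a block, where MYB12 (limma adjusted p 0.00682) and RHM1 (0.0412) joined MYB11 and 51.5% of all tested genes were higher. With the block joined to median-ratio scaling, chosen after seeing the data, 1 was higher and 4 were lower, where 28.4% of all tested genes were lower and FLS1 (-0.70) and UGT78D1 (-0.36) joined OMT1 and UGT78D2. Deviations of same-numbered samples correlated at 0.21, -0.19 and 0.48 for replicates 1 to 3, the last being the highest of any Col-0 and tt7-7 pair. The labels name no batch, and whether same-numbered samples share one was not tested. Not every sample correlated best with its own number. With each sample left out in turn, the members called higher ranged from 1 to 3 and those called lower from 1 to 2. Leaving out Col-0 replicate 3 or tt7-7 replicate 2 gave 1 lower (all tested genes 7.63% and 6.03%). Leaving out Col-0 replicate 1 gave 3 higher (all tested genes 54.6%), and tt7-7 replicate 3 gave 2 (46.0%). All genes called numbered 9929, against 10731 at an unadjusted p under 0.05, and 5383 of the 9743 genes tested with a mean of at least 10 RPKM, where MYB12 was not tested. Signs turned for UGT78D1 under median-ratio scaling with or without the block (-0.36), scaling outside the 100 highest genes (-0.095) and the length trend removed (-0.30), and with samples left out it ranged from -0.0068 to 0.30. RHM1 turned to -0.14 and -0.31 under median-ratio scaling and the length trend removed, and FLS2 to -0.053 under median-ratio scaling, likewise with or without the block. FLS1 ranged from -0.44 to 0.020 with samples left out. The cause of these shifts was not tested. The 5 ratios kept their sign with 1 RPKM added and with each sample left out, where the smallest exact p is 0.2. MYB12 had the fewest reads of the members, 91 to 322 per library, which limits its precision.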

Other observations

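FLS1 held 80.9%, 78.0% and 69.9% of the summed RPKM of FLS1 and FLS2 in the 3 Col-0 libraries against 75.6%, 67.8% and 57.5% in those of tt7-7. The shares overlapped between genotypes (exact two-sided permutation p 0.2). HY5 (AT5G11260), a bZIP factor of light signalling known to act upstream of MYB12, was at 8.81, 6.62 and 7.36 RPKM in Col-0 and 12.6, 10.9 and 12.1 RPKM in tt7-7. HY5 rose by 0.58 on the log2 scale (limma adjusted p 0.00707, and 0.00318 to 0.742 over its alternatives), and the genotypes did not overlap. The call was lost with either median-ratio scaling or quantile normalization. MYB11 and MYB12 had coding sequences 79.9% identical over 945 aligned bases, with a longest shared run of 36 bases. RHM1 shared a run of 29 bases with RHM2 and with RHM3.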
